A study of Mus musculus with 2 samples.

Results

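The 6 Iroquois genes of the mouse lie in a pair of paralogous clusters, Irx3, Irx5 and Irx6 on chromosome 8 and Irx1, Irx2 and Irx4 on chromosome 13, and the chromatin loops listed around them in the uterus are described here. The study made 1 Hi-C library from uterus in estrus and 1 in diestrus, all from untreated CD-1 mice, an outbred stock, aged 2 months. Hi-C joins pieces of DNA that lie close together in the nucleus and counts the joined pairs, and a loop is a pair of places 10 kb wide (its anchors) that met more often than their surroundings. A loop was a member when at least 1 anchor lay inside 91500001 to 93400000 of chromosome 8 (the Irx3 cluster) or 71400001 to 74000000 of chromosome 13 (the Irx1 cluster, with Tert, the gene of the catalytic subunit of telomerase, at its far end), on mouse build mm10. This gave 52 of the 24131 loops listed in estrus and 52 of the 26240 listed in diestrus. The Irx3 cluster held 23 of them in estrus and 24 in diestrus, and the Irx1 cluster 29 in estrus and 28 in diestrus.

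Iroquois genes encode transcription factors with a TALE-class homeodomain and pattern the heart, limb, nervous system and other organs of vertebrates. Both clusters arose by duplication of an ancestral cluster, so that Irx3 is the counterpart of Irx1, Irx5 of Irx2 and Irx6 of Irx4, and neighbouring genes of a cluster share distant enhancers. The long introns of Fto, an RNA demethylase gene beside Irx3, are known to hold enhancers that act on Irx3 and Irx5, and Irx3 and Irx5 are known in the mouse ovary for a role in follicle growth. Estrus follows the estrogen peak of the cycle, and diestrus is its progesterone phase.

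The contacts at listed loops summed to 4153485 in estrus and 4533525 in diestrus, with a median of 125 per loop in each library. Strength is the number of contacts observed at a loop over the number expected from the ring of pixels around it (the donut), and its median was 3.43 over all estrus loops and 3.28 over all diestrus loops. Each stage has 1 library, so differences are given without p-values and have no replicate check. How many animals went into each library is not stated in the labels. Intervals are at 95%. Those of contacts and of ratios cover counting error only, those of shares and medians cover chance over the listed loops only, and none covers the spread between animals. Whole uterus mixes cell types, so fewer cells with a loop and fewer contacts per cell cannot be told apart, and loop lists hold no expression against which the tissue could be checked. A loop missing from a list is not shown to be absent, since contacts at places that were not called are not used here.

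The start sites of Irx3, Irx2 and the long non-coding RNA gene Crnde lie in bins at which loops between neighbouring Iroquois genes ended, for Irx3 and Crnde in both stages and for Irx2 in diestrus. The 250 bases upstream of each start are shown, from RefSeq on GRCm38.p6, the assembly that mm10 names. They lie at chr8:91801655-91801904 on the minus strand for Irx3, chr13:72628570-72628819 on the plus strand for Irx2, and chr8:92356121-92356370 on the minus strand for Crnde. Each is written 5′ to 3′ on the gene's own strand, and capitals mark CpG dinucleotides, a feature chosen after the sequences were seen.
Irx3: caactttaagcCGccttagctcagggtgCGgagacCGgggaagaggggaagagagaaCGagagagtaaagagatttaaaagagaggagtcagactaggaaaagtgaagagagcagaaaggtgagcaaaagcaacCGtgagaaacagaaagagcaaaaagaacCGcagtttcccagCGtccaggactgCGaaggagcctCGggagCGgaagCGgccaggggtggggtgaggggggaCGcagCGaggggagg
Irx2: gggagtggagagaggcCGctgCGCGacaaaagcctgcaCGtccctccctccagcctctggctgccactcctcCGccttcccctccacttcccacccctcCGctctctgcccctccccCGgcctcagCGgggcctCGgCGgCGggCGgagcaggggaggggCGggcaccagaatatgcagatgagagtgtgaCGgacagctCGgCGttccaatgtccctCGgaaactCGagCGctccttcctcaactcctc
Crnde: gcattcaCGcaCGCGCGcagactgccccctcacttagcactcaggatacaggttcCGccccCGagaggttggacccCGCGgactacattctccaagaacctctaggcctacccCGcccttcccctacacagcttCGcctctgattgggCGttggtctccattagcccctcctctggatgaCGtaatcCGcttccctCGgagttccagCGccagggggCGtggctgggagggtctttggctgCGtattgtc

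Of the 7 genes (the 6 Iroquois genes and Tert), 4 had a promoter in the table used here, Irx3, Irx2, Irx4 and Tert. In windows of 300 bases around the start, the Irx3 promoter held 14 CpG, a number reached by 36.3% of 32851 mouse promoters, and the Irx2 promoter held 25, reached by 18.4%. Irx4 had 31 (10.6% of promoters had as many), Tert 15 (34.6%) and Crnde 22 (23.1%), against a median of 7 over all promoters. All 5 therefore lay above the median promoter in CpG number. On both strands of the same windows, 4 motifs were searched. ACANNTGT, bound by Iroquois proteins of Drosophila, was present in 7.38% of all promoters, the palindromic estrogen response element in 0.0700%, the palindromic progesterone response element in 0.475% and the core of the CTCF site in 0.0365%. None of the 4 motifs was in any of the 5 windows. At such shares, absence from 5 windows is likely for any promoters, so it says little about these. Only full matches to the 4 patterns were searched, and sites that differ from them may be present.

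Irx3 and Irx5 were joined to each other by a loop in both stages, and each was joined to the same 3 distant places on the Fto side. Irx3 (91798511 to 91801654, minus strand) crosses the border between a pair of bins, so that its start site lies in the anchor at 91.80 Mb and its other end in the anchor at 91.79 Mb. Irx5 (92357796 to 92361456) likewise crosses from the anchor at 92.35 Mb, which also holds the start of Crnde, to the one at 92.36 Mb. The genes are 556.1 kb apart, and the loop between them, from 91.80 to 92.35 Mb, spanned 550 kb. It had 118 contacts in estrus (97.7 to 141) against 184 in diestrus (158 to 213), the 2 intervals being separate, and its strength was 4.10 in estrus and 5.72 in diestrus. Contacts summed over all listed loops stood at 0.916 in estrus over diestrus, a value that also reflects the shorter estrus list. For this loop alone the contacts stood at 0.641. The strength ratio, estrus over diestrus and centred on the median of all loops paired between the libraries, was 0.709 (0.558 to 0.898), or −0.50 on the log2 scale. Of all 19399 paired loops, 2.76% had a ratio as low or lower. A change of 1.5-fold, the mark used for all pairs, was not passed.

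The place at 91.19 Mb (91190001 to 91200000) is intergenic, 17.0 kb below Rpgrip1l, a gene of the primary cilium, and those at 91.37 and 91.53 Mb lie inside Fto (91313367 to 91668433). The anchors in Fto overlap the gene's body and neither of its ends, and whether they are exonic or intronic is not known here, since no exon annotation was used. From 91.19 Mb, the loop to Irx3 had 35 contacts in estrus and 39 in diestrus, at strengths of 4.23 in estrus and 3.34 in diestrus. Its centred ratio was 1.26 (0.772 to 2.03). The loop of 1170 kb in estrus and 1160 kb in diestrus from the same place to Irx5 had 53 contacts in estrus and 47 in diestrus, with a ratio of 1.24 (0.820 to 1.87). Both intervals include 1, so a change at either loop was not detectable at this depth.

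From 91.37 Mb in Fto, Irx3 was reached with 48 contacts in estrus and 39 in diestrus (ratio 1.25, 0.804 to 1.96), and Irx5 with 52 in each stage (ratio 0.961, 0.642 to 1.44). From 91.53 Mb in Fto, Irx3 was reached with 67 contacts in estrus and 86 in diestrus (ratio 0.835, 0.597 to 1.16), and Irx5 with 77 in estrus and 70 in diestrus (ratio 1.10, 0.787 to 1.55). The intervals of all 4 ratios include 1. Each of the 3 outer places thus met both genes in both stages, and of the 7 loops among Irx3, Irx5 and these places, only the loop between the genes had an interval that left out 1. In diestrus the loops from 91.19 and 91.37 Mb to Irx3 had a largest q-value of 0.0164 each, so that at 0.01 Irx3 and Irx5 shared only the place at 91.53 Mb.

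**Figure D1:**
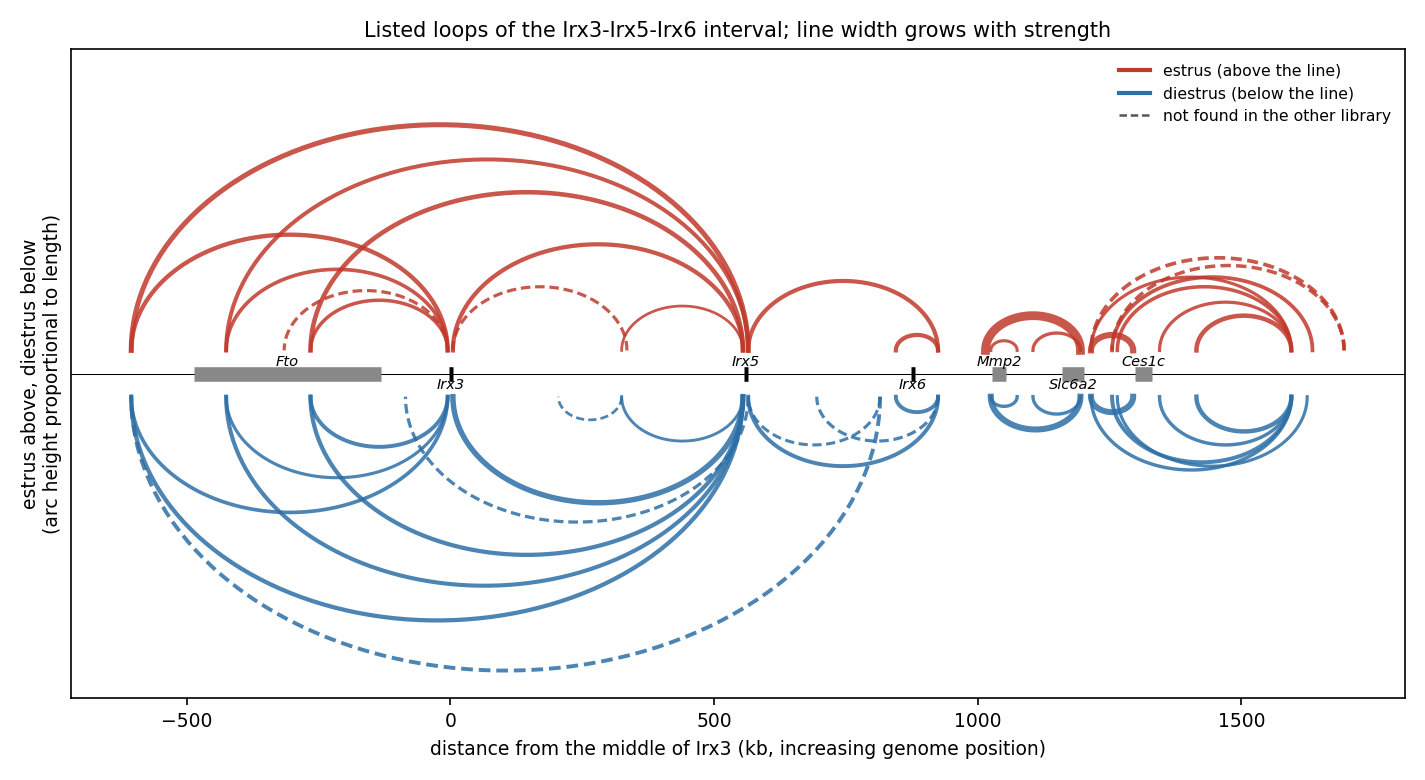
Loops of the Irx3 cluster, drawn as arcs between anchors against distance from the middle of Irx3 in kb, with estrus above the line, diestrus below it, height proportional to length and dashes for loops not found in the other library. Irx3 and Irx5 share 3 outer places at Fto and beyond, Irx6 has no loop end in it, and the loops past Mmp2 form a separate group of arcs up to 480 kb long.

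A loop was found in the other library when that list had a loop with both anchors within 10 kb of its own, which was not so for 19.2% of all estrus loops and 25.6% of all diestrus loops. Irx3 had 6 loops in estrus and 4 in diestrus. The estrus list alone held a loop from 91.48 Mb in Fto (60 contacts, strength 2.69) and one from Irx3 up to 92.13 Mb in the gap before Irx5 (60 contacts, strength 2.64). At Irx5 there were 6 loops in estrus and 8 in diestrus, and the diestrus list alone held one from 91.71 Mb (70 contacts, strength 2.73) and one up to 92.61 Mb (53 contacts, strength 2.49). A gain of 2 or more loops in estrus was seen at 3.7% of the 9049 protein-coding genes with a loop in either library, and a gain of 2 or more in diestrus at 6.56%. These 4 loops had 53 to 70 contacts, below the median of 125 for all loops.

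Irx5 also had loops toward Irx6 in both stages. The loop from 92.36 to 92.72 Mb (360 kb) passed over Irx6 and had 53 contacts in estrus against 54 in diestrus, with a ratio of 1.08 (0.724 to 1.61). Within the gap between Irx3 and Irx5, the loop from 92.12 Mb to Irx5 had 60 contacts in estrus and 72 in diestrus, and its strength was low in both, 2.02 in estrus and 2.28 in diestrus. Irx6 itself (92674289 to 92680956) had no loop at either end in estrus or in diestrus. The nearest anchor lay 24.3 kb away, and Irx6 was spanned by 3 loops in estrus and 4 in diestrus. In each stage, 1 of these spanned the whole region of the cluster and was not a member. A shorter loop over Irx6, from 92.64 to 92.72 Mb, had 178 contacts in estrus and 154 in diestrus.

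In the Irx1 cluster, Irx1 and Irx2 were also joined to each other in both stages, across the 660.7 kb between them. The loop had 65 contacts in estrus (50.2 to 82.8) and 82 in diestrus (65.2 to 102), and strengths of 3.30 in estrus and 3.91 in diestrus. Its ratio was 0.836 (0.594 to 1.17), or −0.26 on the log2 scale, so that a change was not detectable at this depth. Its anchors at Irx2 were neighbouring bins rather than the same bin, 72.63 Mb in estrus and 72.62 Mb in diestrus, and Irx2 (72624430 to 72634196, plus strand) lies in both, with its start site in the lower one. The loop was thus listed in both stages at about the length of the gene gap, as was the one between Irx3 and Irx5.

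Irx1 (71958232 to 71963723) and Irx2 shared a single outer place, at 71.45 Mb (71450001 to 71460000), which overlaps no annotated gene. The loop of 500 kb from it to Irx1 was the strongest loop at an Irx1-cluster Iroquois gene in both stages, with 124 contacts and strength 5.10 in estrus against 129 contacts and strength 4.01 in diestrus (ratio 1.26, 0.975 to 1.62). To Irx2 the same place had 42 contacts in estrus and 44 in diestrus (ratio 1.27, 0.814 to 1.99). In diestrus this loop had a largest q-value of 0.0339, so that at 0.01 no outer place was shared there. A place farther out, at 71.10 Mb, was joined to Irx1 with 45 contacts in estrus and 65 in diestrus (ratio 0.737, 0.493 to 1.09), and no loop from it to Irx2 was listed. All 3 intervals include 1.

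The outer places of the Irx1 cluster were also joined over the genes to a place at 73.03 to 73.04 Mb, between Irx2 and Irx4. The loop from 71.10 to 73.03 Mb, 1930 kb long, had 30 contacts in estrus and 50 in diestrus, and strengths of 3.65 in estrus and 5.51 in diestrus. Its ratio of 0.655 (0.402 to 1.05, log2 −0.61) passed 1.5-fold toward diestrus, though the interval includes 1. From 71.45 Mb the loop to this place had 31 contacts in estrus and 36 in diestrus. Irx1 itself reached 73.03 Mb in the diestrus list alone (32 contacts, strength 3.56), and Irx2 reached 73.01 Mb in the estrus list alone (38 contacts, strength 2.17).

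Irx4 (73259589 to 73269622), the counterpart of Irx6, had no loop at either end in either stage, and the nearest anchor lay 40.4 kb away. It was spanned by loops from 73.16 Mb to 73.31 Mb, where Ndufs6, a gene of mitochondrial complex I, ends (76 contacts in estrus, 70 in diestrus), and to 73.40 Mb (67 in estrus, 76 in diestrus). The estrus list alone held another, to 73.35 Mb (66 contacts, strength 3.16). Loops that began at or below Irx2 reached at most 73.04 Mb in estrus and 73.03 Mb in diestrus, and so stopped short of Irx4. This leaves out a single estrus loop of 15280 kb with 13 contacts, which began between Irx1 and Irx2. Member loops that began at or below Irx5 reached 92.72 Mb in both stages, beyond Irx6. At the Irx3 cluster, 1 further loop in each stage spanned the whole region and was not a member.

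**Figure D2:**
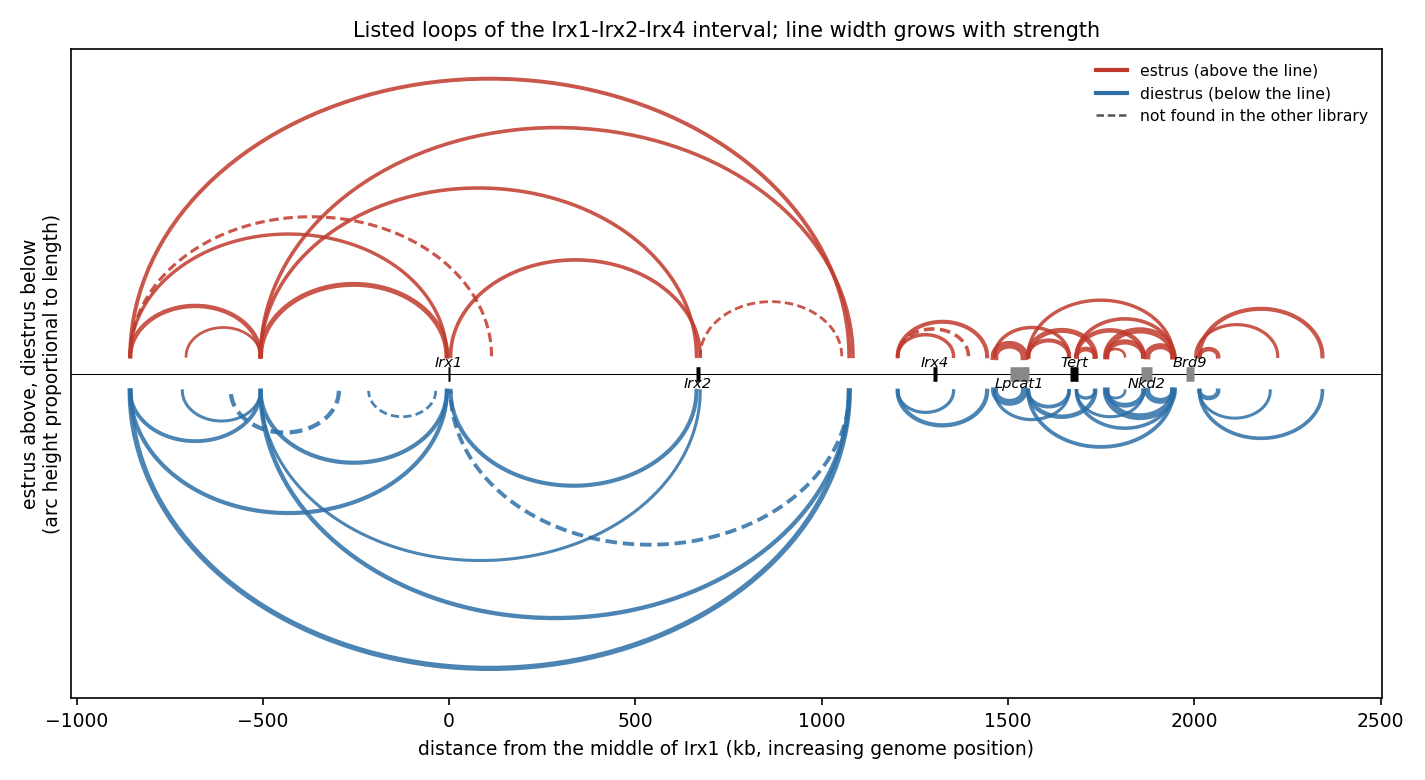
Loops of the Irx1 cluster, drawn in the same way against distance from the middle of Irx1 in kb; the estrus loop of 15280 kb is left out. The long arcs from 71.10 and 71.45 Mb over Irx1 and Irx2 end at 73.03 to 73.04 Mb, before Irx4, and the arcs around Tert form a separate group of loops at most 390 kb long.

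Counted by gene, Irx3 and Irx5 had at least as many loops as their counterparts Irx1 and Irx2 in both stages, and Irx6 and Irx4 had none. Irx1 had 3 loops in estrus and 4 in diestrus, beside 6 in estrus and 4 in diestrus at Irx3. Irx2 had 3 in estrus and 2 in diestrus, beside 6 in estrus and 8 in diestrus at Irx5. With q-values held at or below 0.01, Irx3 had 2 loops in diestrus against 4 at Irx1, so that this order turned round in diestrus. As many loops as at Irx3 were seen at 1.0% of 21631 protein-coding genes in estrus and 4.54% in diestrus, and as many as at Irx5 at 1.0% in estrus and 0.425% in diestrus. For Irx1 these shares were 9.19% in estrus and 4.54% in diestrus, and for Irx2 9.19% in estrus and 19.9% in diestrus. At least 1 loop was seen at 35.3% of protein-coding genes in estrus and 37.2% in diestrus, so that most genes, like Irx6 and Irx4, had none.

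**Figure D3:**
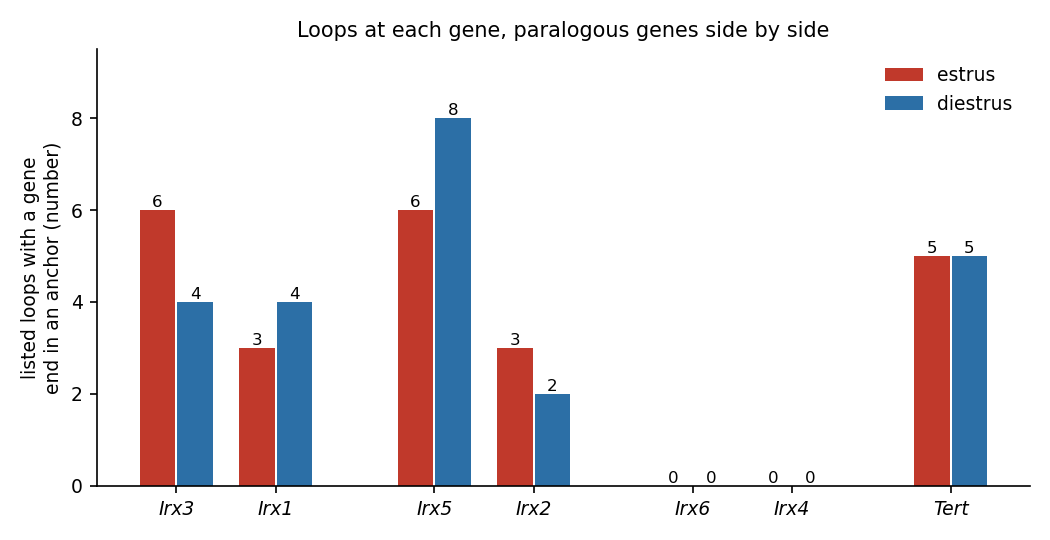
Number of listed loops with an end of the gene in an anchor (vertical axis), for paralogous genes side by side and for Tert, with the estrus bar left of the diestrus bar. Irx6 and Irx4 stand at 0 in both stages, and the highest bar is Irx5 in diestrus with 8.

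The loops of both clusters that had an Iroquois gene in an anchor were long. In the Irx3 cluster there were 11 in each stage, with a median length of 420 kb in estrus and 550 kb in diestrus, and in the Irx1 cluster 5 in each stage, with medians of 670 kb in estrus and 850 kb in diestrus. The other loops of the Irx3 cluster had medians of 215 kb in estrus and 180 kb in diestrus, and those of the Irx1 cluster 195 kb in estrus and 180 kb in diestrus. All listed loops had medians of 230 kb in estrus and 240 kb in diestrus. Median strength of the Iroquois loops was 3.78 in estrus and 3.68 in diestrus at the Irx3 cluster, and 3.21 in estrus and 3.91 in diestrus at the Irx1 cluster. Their contacts summed to 683 in estrus and 766 in diestrus at the Irx3 cluster, and to 314 in estrus and 352 in diestrus at the Irx1 cluster.

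Groups of 3 places in which all pairs were joined, here called triangles, were counted in each list after the lists were seen. Anchors within 10 kb of each other, between nearest edges, were taken as 1 place. Of the Iroquois loops of the Irx3 cluster, 10 of 11 in estrus and 8 of 11 in diestrus were a side of a triangle, and of the Irx1 cluster 4 of 5 in estrus and 5 of 5 in diestrus, against 57.2% of all estrus loops and 59.7% of all diestrus loops. Among the other loops of the Irx1 cluster, 17 of 24 in estrus and 15 of 23 in diestrus were too. Among those of the Irx3 cluster, it was 0 of 12 in estrus and 1 of 13 in diestrus. The loop between Irx3 and Irx5 was a side of 4 triangles in estrus, whose other corners lay at 91.19, 91.37, 91.53 and 92.13 Mb, and of 3 in diestrus, with the same corners except the one at 92.13 Mb. As many triangles were seen at 3.15% of estrus loops and 11.7% of diestrus loops. The loop between Irx1 and Irx2 was a side of 1 triangle in each stage, with 71.45 Mb as the other corner. With q-values at or below 0.01, the loop between Irx3 and Irx5 kept 3 triangles in estrus and 1 in diestrus, and the loop between Irx1 and Irx2 kept 1 in estrus and 0 in diestrus. In bulk libraries a triangle does not show that the 3 places met in the same cell.

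Loops at the 7 genes tended to leave outward, those at the lower end toward lower positions and those at the higher end toward higher ones. Over the 7 genes this held for 20 of 23 loop ends in estrus (87.0%) and 21 of 23 in diestrus (91.3%), against 56.7% in estrus and 56.8% in diestrus at 8473 protein-coding genes whose ends lie 1 or 2 bins apart. Neither set was limited to genes with loops at both ends, for which no share was computed. At Irx3, Irx1 and Tert it held for 14 of 14 loop ends in estrus and 13 of 13 in diestrus, and at Irx5 and Irx2 for 6 of 9 in estrus and 8 of 10 in diestrus. At Irx3, for example, the anchor at 91.79 Mb had 4 loops in estrus and 3 in diestrus, all toward Fto, and the anchor at 91.80 Mb had 2 in estrus and 1 in diestrus, all toward Irx5. Loops between members count at both genes, and this count too was made after the lists were seen.

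Among the loops paired between the libraries, no Iroquois loop had a ratio past 1.5-fold. In the Irx3 cluster, 9 Iroquois loops were paired, with a median centred log2 ratio of 0.11 (−0.26 to 0.33), 5 of them higher in estrus and 4 higher in diestrus. In the Irx1 cluster, 4 were paired, with a median of 0.04, 2 of them higher in each stage. None of these 13 passed that mark in either direction, which 1.64% of all paired loops did toward estrus and 1.56% toward diestrus. At such shares, none among 13 is what pairs in general would mostly give. The interval of each of the 13 ratios reached past 1.5-fold toward estrus or toward diestrus, so a change of that size is not excluded for any of them. Summed over the paired Iroquois loops, contacts were 563 in estrus and 643 in diestrus at the Irx3 cluster (ratio 0.876). At the Irx1 cluster they were 276 in estrus and 320 in diestrus (ratio 0.863). For all listed loops, paired or not, the ratio was 0.916, with 24131 loops in estrus and 26240 in diestrus. The ratio over all paired loops was not computed, so these sums have no like background.

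**Figure D4:**
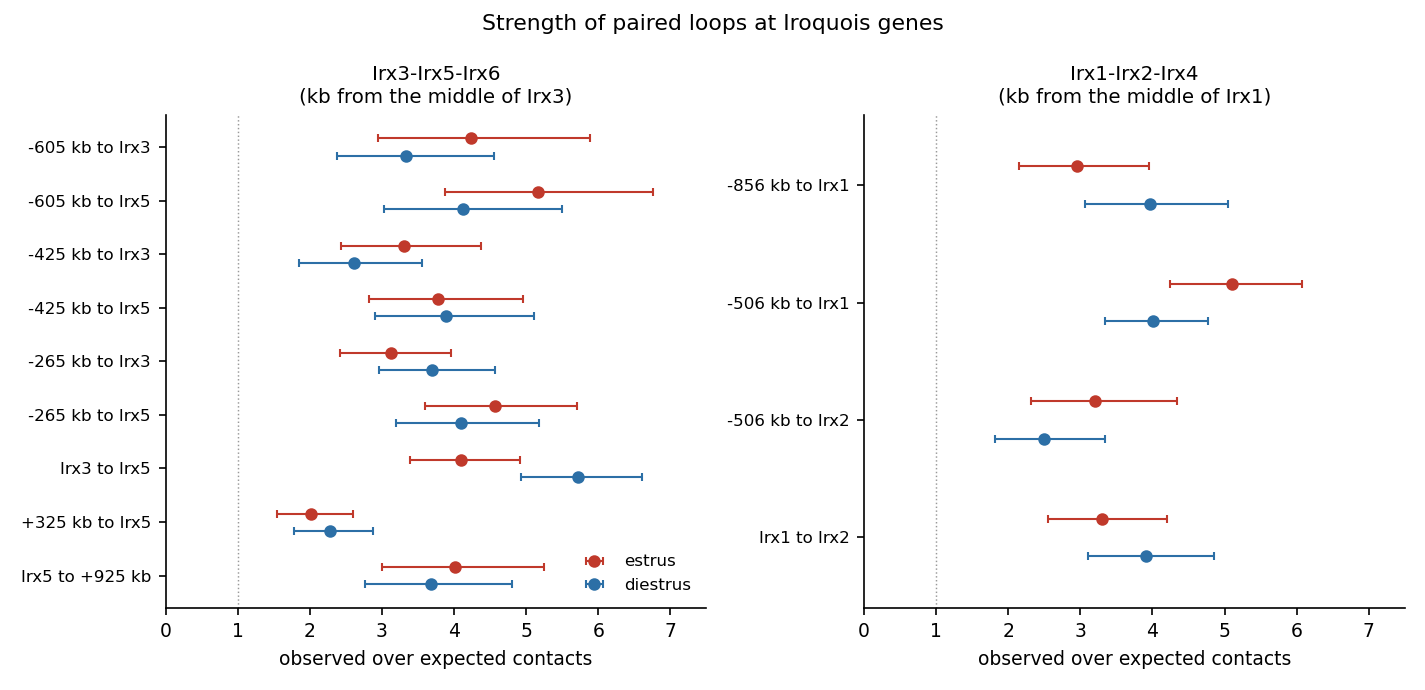
Strength (observed over expected contacts, horizontal axis) of the 13 paired loops at Iroquois genes, with estrus above diestrus in each pair and bars for counting error at 95%. Only for the loop between Irx3 and Irx5 do the bars of the stages separate, with 4.10 in estrus and 5.72 in diestrus.

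Over all loops of both clusters, 44 pairs were made, 25 higher in estrus and 19 higher in diestrus. Of these, 3 passed 1.5-fold toward estrus (6.82%) and 1 toward diestrus (2.27%), the 1930 kb loop given above. Over all paired loops these shares were 1.64% toward estrus and 1.56% toward diestrus. Of the 3 toward estrus, 2 began at the same anchor at Tert and 1, whose anchors were not identical, lay beside Mmp2. In 4 of the 44 pairs the interval of the ratio left out 1, namely these 3 and the loop between Irx3 and Irx5. With 44 intervals at 95%, a few can leave out 1 by counting error. The share of all paired loops with such an interval was not computed, so the 4 have no background to be read against.

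**Figure D5:**
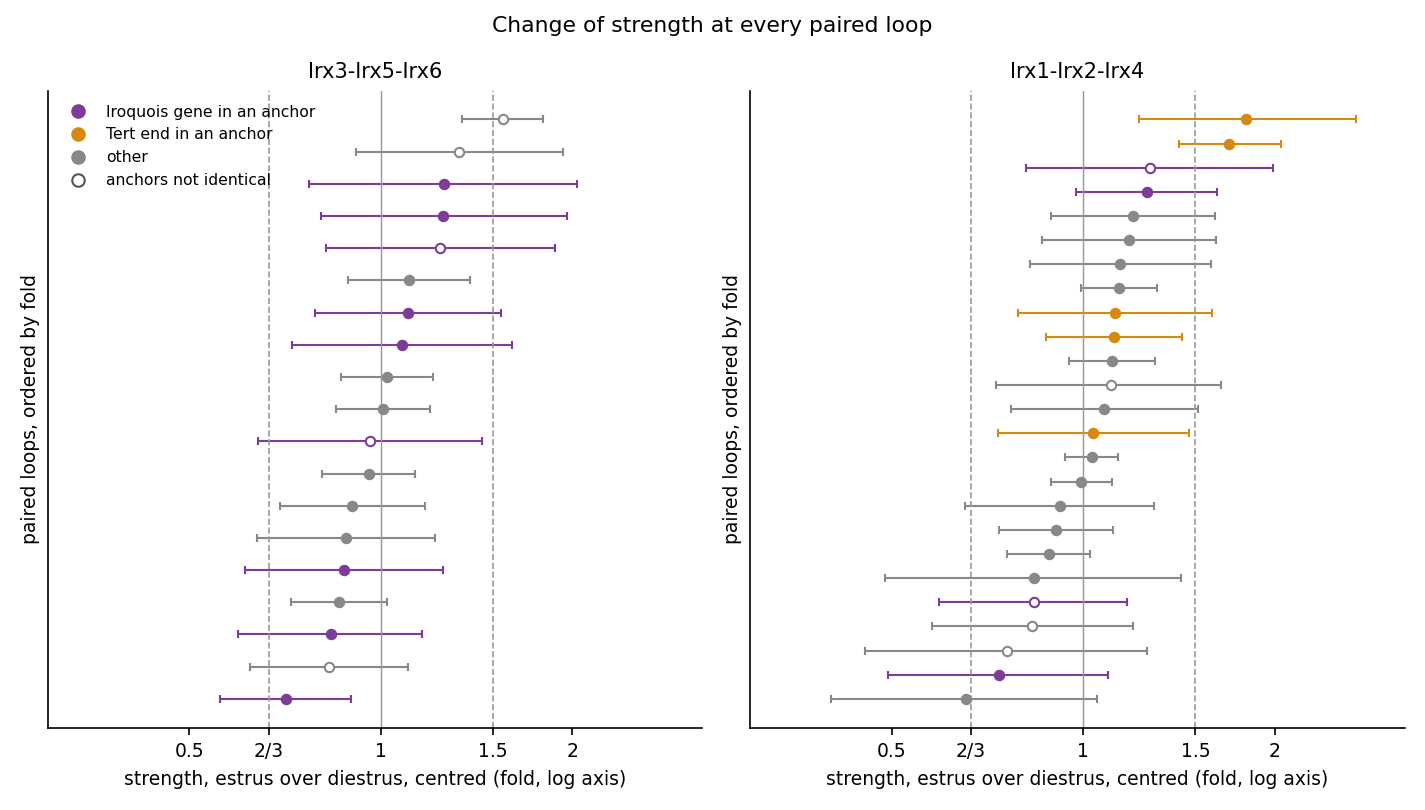
Centred strength ratio, estrus over diestrus (log axis), of all 44 paired loops in order of size, with counting error at 95% and dashed lines at 1.5-fold in each direction. The 2 highest points of the Irx1 cluster are Tert loops at 1.80 and 1.70. The points of the Iroquois loops lie between the dashed lines in both clusters, though the bar of each crosses a dashed line.

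Tert (73626911 to 73649843, plus strand) had 5 loops in each stage, and 2 of the 3 from its far end were over 1.5-fold stronger in the estrus library. The loop from 73.64 Mb, which holds that end, to 73.69 Mb in the body of Slc6a19, a gene of an amino acid transporter, had 357 contacts in estrus (321 to 396) and 173 in diestrus (148 to 201), with strengths of 4.93 in estrus and 2.88 in diestrus. Its ratio was 1.70 (1.41 to 2.05, log2 0.76), and 0.670% of all paired loops had a ratio as high. The loop from the same anchor to 73.82 Mb in the body of Nkd2, a gene of an inhibitor of Wnt signalling, had 80 contacts in estrus and 42 in diestrus, with strengths of 4.55 in estrus and 2.50 in diestrus. Its ratio was 1.80 (1.22 to 2.68, log2 0.85), and 0.443% of paired loops had one as high. Both loops had identical anchors in the libraries, and among such pairs of the genome 0.677% passed 1.5-fold toward estrus and 0.733% toward diestrus.

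The other Tert loops and the other loops of the same partners were closer between the stages. From 73.64 Mb, the loop to 73.90 Mb had 72 contacts in estrus and 68 in diestrus (ratio 1.04, 0.734 to 1.47). At the start of Tert, in the anchor at 73.62 Mb that also holds an end of Clptm1l, the loop to 73.51 Mb at Lpcat1, a gene of phospholipid synthesis, had 137 contacts in estrus and 132 in diestrus (ratio 1.12, 0.874 to 1.43). The loop to 73.42 Mb had 69 contacts in estrus and 67 in diestrus (ratio 1.12, 0.789 to 1.59). The partner place at 73.69 Mb was joined to 73.51 Mb with 83 contacts in estrus and 73 in diestrus (ratio 1.14), and the partner at 73.82 Mb to 73.72 Mb with 361 in estrus and 308 in diestrus (ratio 1.11). Strength ratios past 1.5-fold thus stood only at the 2 loops between the far end of Tert and these partners. The loops just given, of Tert or its partner bins to other places, had ratios of 1.04 to 1.14, and their contacts too were higher in estrus, by less. In the adjoining bin at 73.83 Mb, also in Nkd2, contacts went the other way. Its loop to 73.90 Mb had 808 contacts in estrus and 914 in diestrus (ratio 1.03, 0.937 to 1.13).

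Near the Irx3 cluster, the loop past 1.5-fold joined the region just below or at the lower end of Mmp2, a gene of a matrix-degrading protease, to 92.99 Mb in the body of Slc6a2, the noradrenaline transporter gene. It had 374 contacts in estrus and 361 in diestrus, and strengths of 10.4 in estrus and 6.59 in diestrus (ratio 1.55, 1.34 to 1.80). Its lower anchor was at 92.81 Mb in estrus and at 92.82 Mb in diestrus, and the contacts expected were 36.1 in estrus and 54.8 in diestrus, so that the ratio compares neighbouring pixels whose contacts were close. Of all 19399 pairs of the genome, 16240 had identical anchors, but of the 319 past 1.5-fold toward estrus only 110 did. From 92.82 Mb, Mmp2 also had a loop to 92.87 Mb in Lpcat2 with 248 contacts in estrus and 294 in diestrus (ratio 0.860).

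Loops at other neighbouring genes were listed by an end of the gene in an anchor. Only loops of the clusters were counted, so that neighbours outside the limits may have others. Of 17 neighbours named for the Irx3 cluster, 5 had such a loop, namely Crnde (3 loops in estrus, 5 in diestrus), Mmp2 (1 in estrus, 2 in diestrus), Ces1b (2 in estrus, 1 in diestrus), Capns2 (1 in each) and Ces1c (1 in each). The Crnde loops are all loops of Irx5, since both genes have an end in the anchor at 92.35 Mb. Of 15 named for the Irx1 cluster, 4 had such a loop, namely Lpcat1 (3 in each stage), Clptm1l (2 in each), Ndufs6 (1 in each) and Brd9 (1 in estrus, 0 in diestrus). Fto had no loop at its ends in either stage, and 5 loops of the Irx3 cluster in estrus and 4 in diestrus had an anchor anywhere in its body.

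The loops of both clusters were found in the other library about as often as loops in general. In the Irx3 cluster, 19 of 23 estrus loops were found in diestrus (82.6%, 61.2 to 95.0) and 19 of 24 diestrus loops in estrus (79.2%, 57.8 to 92.9). In the Irx1 cluster the numbers were 25 of 29 in estrus (86.2%, 68.3 to 96.1) and 25 of 28 in diestrus (89.3%, 71.8 to 97.7). Over all loops, 80.8% of those in estrus and 74.4% of those in diestrus were found. All 4 intervals include the share of the whole list of their stage.

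The clusters differed little from the lists in density and strength. The Irx3 cluster had 20 loop anchors per Mb in estrus and 22.1 in diestrus, and the Irx1 cluster 18.8 in estrus and 18.5 in diestrus. Over the genome there were 18.9 in estrus and 20.6 in diestrus. Median strength over all loops of the Irx3 cluster was 3.33 in estrus (2.78 to 4.10) and 3.49 in diestrus (2.73 to 3.89), and of the Irx1 cluster 3.65 in estrus (3.13 to 4.56) and 3.59 in diestrus (2.88 to 4.17). All 4 intervals include the median of their list. At the limits of the regions, the nearest loops left out were 10 kb below the Irx3 cluster, from 91.19 to 91.48 Mb in estrus (54 contacts) and from 91.37 to 91.48 Mb in diestrus (119 contacts). Above the Irx1 cluster, the nearest left out ran from 74.09 to 74.30 Mb (226 contacts in estrus, 237 in diestrus).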

How the data were processed

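Uterine loop lists of 1 estrus and 1 diestrus library (Arima HiC kit, per the labels' protocols) were used, each placed by its stage label. The submitters' processing notes name Juicer and mm10, with aligner, versions and caller settings not given in the sources used here. Columns are those of the caller HiCCUPS, per the file headers. Observed contacts and merged pixels are deposited as counts, not normalized. The contacts expected from 4 neighbourhoods are a signal computed by the authors. The deposited q-values are those of the caller, at most 0.0991 in estrus and 0.0955 in diestrus. Anchor positions are deposited as bases.

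Strength, found loops and pairs were computed as the text defines, with Python 3.11.15, pandas 2.3.3 and scipy 1.17.1. Log2 ratios were centred on the median over 19399 pairs. Intervals were exact Poisson (contacts), exact conditional with expectations taken as exact (ratios), Clopper-Pearson (shares) and order statistics (medians). Without molecular identifiers, read pairs may repeat a molecule. A loop was at a gene when an end of the gene lay in an anchor. Genes and promoters came from RefSeq tables of GRCm38.p6. The pairing was tested on simulated lists. All 7 genes were named whatever their values, neighbours came from a list of gene order, and loops named were those at the 7 genes, the strongest, the longest, those past 1.5-fold and those of a single library. The genes, lists and rules were chosen with earlier results of these data known. The planned comparison of proteins was not run, since no protein table was used here.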

Additional observations from a re-analysis of the deposited data

How the results depend on the processing

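Of 181 values recomputed under other settings for 50 results, 169 stayed within the limits set for them, 11 moved, 1 fell below its mark and 0 reversed. Counting only loops with both anchors inside left 15 loops of the Irx3 cluster in estrus, where the count was 23. When both anchors had to be identical, 60.9% of estrus loops of the Irx3 cluster and 71.43% of diestrus loops of the Irx1 cluster were found, and 0 pairs of the Irx3 cluster passed 1.5-fold, since the Mmp2 pair has different anchors. With the largest of the 4 expectations, median strength was 2.63 in estrus and 2.60 in diestrus for the Irx3 cluster and 2.74 in estrus for the Irx1 cluster, and the 1930 kb loop stood at −0.46 (log2), below 1.5-fold, which leaves 3 pairs past it toward estrus and 0 toward diestrus. The Tert loops stayed past it under every setting run. With all q-values at or below 0.01, diestrus loops fell to 2 at Irx3 (against 4 at Irx1) and 1 at Irx2, and, in a setting added after the q-values were seen, diestrus triangles fell to 1 on the Irx3–Irx5 loop and 0 on the Irx1–Irx2 loop. An added setting of at least 20 contacts, chosen after the 13-contact loop was seen, removed that loop. No paired analysis was possible because each stage has 1 library and the labels give no replicate numbers, and for the same reason no library could be left out. Loops of the Iroquois genes had 32 to 184 contacts, which limits what difference can be seen at each.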

Other observations

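Several of the strongest loops of both regions lay beyond the Iroquois genes. Past Mmp2, the carboxylesterase genes (Ces1 family) had a loop from 93.01 to 93.09 Mb at Ces1c with 291 contacts in estrus and 288 in diestrus, at strengths of 6.68 in estrus and 6.46 in diestrus. The anchor at 93.39 Mb, which overlaps no annotated gene, had 4 loops in each stage, all toward lower positions. In the estrus list alone, 93.49 Mb at Ces5a was joined to 93.01 Mb (59 contacts) and to 93.05 Mb at Ces1b (48 contacts).

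Beyond Tert, the anchor at 73.90 Mb also had 4 loops in each stage, all toward lower positions. Its loop to 73.83 Mb in Nkd2 had the most contacts of either region, 808 in estrus and 914 in diestrus, at strengths of 6.73 in estrus and 6.46 in diestrus, and its loop to 73.72 Mb had 326 contacts in estrus and 380 in diestrus, at strengths of 6.84 in estrus and 7.66 in diestrus. Near Lpcat1, the loop from 73.42 to 73.50 Mb had 448 contacts in estrus and 397 in diestrus, at strengths of 8.90 in estrus and 7.74 in diestrus.

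A single estrus loop of 15280 kb ran from 72.14 Mb, between Irx1 and Irx2, to 87.42 Mb. It had 13 contacts (6.92 to 22.2), the lowest number in either list, and a strength of 59.8. It was not found in diestrus, and its cause was not tested. Diestrus alone held a loop from 91.19 to 92.61 Mb over Irx3 and Irx5, 1420 kb long, with 26 contacts. It alone also held loops from 92.00 to 92.12 Mb between Irx3 and Irx5 (81 contacts) and from 92.49 to 92.72 Mb over Irx6 (37 contacts). On the outer side of Irx1, it alone held loops from 71.37 to 71.66 Mb (94 contacts) and from 71.74 to 71.92 Mb (74 contacts). The estrus list alone held a loop from 71.10 to 72.07 Mb over Irx1 (31 contacts).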
